A study of Mus musculus with 6 samples.

Results

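Immune cells of mouse mammary tumours in the library labelled ctxd18t were set against those in the library labelled CTX. Every cell barcode of either library with at least 200 detected genes and at most 15% of its counts from mitochondrial genes was taken. That gave 4011 of 4127 ctxd18t barcodes and 8898 of 9064 CTX barcodes, 12909 cells in all, out of 26843 cells of the 5 libraries whose counts were used. Near the gene limit, 7 ctxd18t and 5 CTX barcodes had 200 to 249 genes, and 11 and 10 had 150 to 199.

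Cyclophosphamide is an alkylating drug that kills dividing cells and depletes lymphocytes before the bone marrow replenishes them. Monocytes that enter a tumour become macrophages, which can take an interferon-driven state that presents antigen and secretes CXCL9, a chemokine that draws T and NK cells. They can also take a state marked by the mannose receptor and matrix proteins that is known from wounds. MERTK, the receptor named in the series title, binds GAS6 and helps macrophages take up dying cells.

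The series holds 6 libraries, 1 for each label, of which CTX, Combined, MRX and VC carry no day in their name while ctxd18t and combod18t do. All are labelled mammary tumor. The series title speaks of triple negative breast cancer, of MERTK inhibition and of cyclophosphamide. Living cells with the leukocyte protein CD45 on their surface were sorted and captured with droplet 3′ chemistry, and the protocol, worded alike for every library, speaks of mice at day 7 dosed 3 hours ahead of harvest. The labels do not spell CTX out, and d18 is read here as day 18. The strain, the tumour line, the age of the mice, the drug dose and the number of animals behind a library were not given in the sources used here. The VC counts were not analysed here.

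With 1 library on each side there was no replicate and no test was run. Every interval below is a 95% interval that covers counting error only. The protocol assigns CTX and Combined to different barcode sets of 1 pool. By bases at a fixed place in the barcode, ctxd18t carried the set of Combined, and combod18t carried the set of CTX. The protocol text, the same for the day 18 libraries, names no other sets for them, so these sets are crossed with respect to their labels. Whether the labels of the day 18 libraries were exchanged was not tested, and every value below follows the labels as given. CTX and ctxd18t shared 0 barcodes, which their different sets fix. Of the libraries with the same set, CTX and combod18t shared 33 barcodes and Combined and ctxd18t shared 20. Day cannot be told apart from any difference in pool or run between the day 18 libraries and the others.

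Over all kept cells the median was 8940 UMIs (unique molecular identifiers, 1 per captured transcript) in ctxd18t and 8899 in CTX, but class by class ctxd18t was deeper. The medians were 13117 against 9577 UMIs in monocyte-macrophage-like, 7688 against 5550 in T-like, 8053 against 7636 in NK-like and 7609 against 4023 in B-lineage-like cells. Ribosomal protein genes took a smaller part of the counts in ctxd18t in each class compared, 9.34% against 12.0% in monocyte-macrophage-like cells and 13.8% against 19.1% in T-like cells. Nuclear genes for subunits of the respiratory chain were also lower there, with 71 of 72 expressed members below 0 on the log2 scale in monocyte-macrophage-like cells (median -0.71), though the median was -0.03 in B-lineage-like cells. Both shifts were present in combod18t as well, and their part in the gene differences below was not tested. Haemoglobin genes summed to at most 4.07 counts per 1000000 (CPM) in any of the 4 classes of ctxd18t.

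Monocyte-macrophage-like cells were the largest class in CTX and a minority in ctxd18t. With likely doublets removed, the class took in 4224 of 8506 cells from CTX (49.7%, exact interval 48.6 to 50.7). From ctxd18t it took in 702 of 3845 (18.3%, 17.0 to 19.5), which is -31.4 percentage points away (-33.0 to -29.8). B-lineage-like cells made up 20.5% of ctxd18t cells (790 cells) and 6.78% of CTX cells (577 cells), 13.8 points higher (12.4 to 15.2). T-like cells made up 32.5% and 20.1%, a difference of 12.5 points (10.8 to 14.2).

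Part of these shifts follows from the smaller macrophage class, since shares add up to a whole. Among cells outside that class, T-like cells were 39.8% of both libraries, a difference of -0.038 points (-2.29 to 2.22). B-lineage-like cells remained more frequent on that base, at 25.1% of ctxd18t and 13.5% of CTX cells. NK-like cells were less frequent on either base, 2.86% against 7.15% of all kept cells and 3.50% against 14.2% of those outside the macrophage class. In counts, ctxd18t held 110 NK-like cells and CTX held 608.

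Neutrophil-like cells, led by Retnlg, Ngp and S100a9, differed most in proportion among the larger classes. They numbered 338 in ctxd18t (8.79%, 7.91 to 9.73) and 88 in CTX (1.03%, 0.831 to 1.27), an 8.50-fold ratio. Among the other libraries, they were 8.86% of MRX, 1.73% of Combined and 7.62% of combod18t. The high shares thus lay in ctxd18t, combod18t and MRX.

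Dendritic cells split by type. Cells like cDC1, the cross-presenting type marked by Xcr1 and Clec9a, were 1.07% of ctxd18t (41 cells) and 0.118% of CTX (10 cells). Cells like cDC2, marked by Cd209a and Mgl2, went the other way, 2.29% (88 cells) against 4.47% (380 cells). Lymphocyte markers were higher in both types in ctxd18t. Summed T-cell markers were 508 CPM against 101.5 CPM in cDC1-like cells (1 and 9 of 12 at 0) and 680 CPM against 156 CPM in cDC2-like cells (0 of 12 at 0 in each). Summed B-lineage markers were 136 CPM against 0 CPM (1 and 10 of 10 at 0) and 924 CPM against 24.4 CPM (0 and 2 of 10 at 0), and their part in these shares was not tested. Plasmacytoid (pDC-like) cells stood at 1.95% and 1.92% of all kept cells, 0.034 points apart (-0.468 to 0.592), too little to detect with these cell numbers. Outside the macrophage class they stood at 2.39% and 3.81%. CCR7 dendritic-like cells, which carry the genes of migrating dendritic cells, were 0.676% and 0.364%, from 26 and 31 cells. Their summed T-cell markers were also higher in ctxd18t, 1146 CPM against 330 CPM (1 and 2 of 12 at 0), as were their NK markers, 99.0 CPM against 22.4 CPM (2 and 4 of 6 at 0), with their part again not tested.

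Epithelial-like cells passed the CD45 sort in both libraries, 132 in ctxd18t (3.43%) and 58 in CTX (0.682%). In these cells summed T-cell markers were 354 CPM in ctxd18t (1 of 12 at 0) and 6.27 CPM in CTX (7 of 12 at 0), and monocyte-macrophage markers 299 CPM (0 of 11 at 0) and 150.5 CPM (1 of 11 at 0). Their part in this share was not tested. Their defining keratin and related markers summed to at most 13.3 CPM in the monocyte-macrophage-like, T-like, NK-like and B-lineage-like cells of the pair. A further 5.54% of ctxd18t and 6.82% of CTX cells lay in clusters with markers of a pair of classes at high depth and stayed outside the named classes. An unnamed cluster led by collagen genes, with a median of 1134 and 1205 UMIs per cell, held 2.05% and 0.952%.

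**Figure D1:**
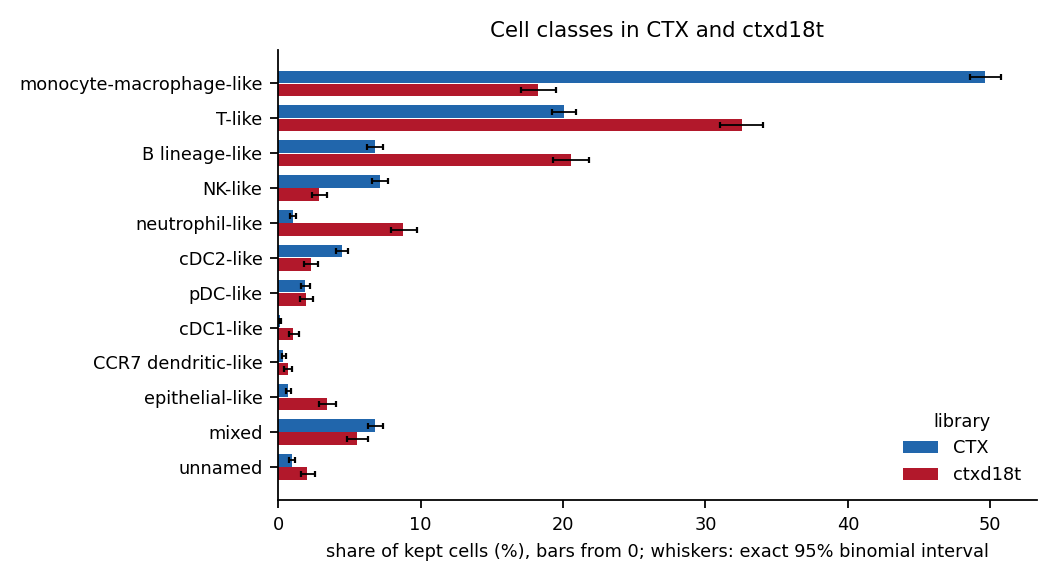
Share of kept cells (%) in each class for CTX (8506 cells) and ctxd18t (3845 cells), with exact 95% binomial intervals for counting error. The monocyte-macrophage-like bar is 49.7% in CTX and 18.3% in ctxd18t, and the B-lineage-like, T-like and neutrophil-like bars are longer in ctxd18t.

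Gene levels were compared in the 4 classes with at least 100 kept cells on both sides. In monocyte-macrophage-like cells, all 11 class markers were seen in at least 10% of cells in both libraries. A 2-fold difference in CPM + 1 was reached by 144 of 3854 expressed genes upward in ctxd18t (3.74%) and by 48 downward (1.25%), 4.98% in either direction. The median log2 ratio of all expressed genes was 0.21 rather than 0. When the libraries were scaled by the median of gene ratios, which removes that shift, the split became 80 higher and 133 lower. Each log2 ratio below is of CPM + 1, ctxd18t over CTX, and "relative" marks the value after that scaling.

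Cxcl9, the chemokine gene of the series title, was lower in ctxd18t. Its level in monocyte-macrophage-like cells was 1046 CPM in CTX (1037 to 1055) and 283 CPM in ctxd18t (272 to 293). MRX had 306, Combined 1023 and combod18t 240.0 CPM, so CTX and Combined stood above the other libraries. The log2 ratio was -1.89 (-1.94 to -1.84), and -2.10 relative. It was much smaller when both libraries were given the same cluster mix, as given with the clusters below. With each cell thinned to 1000 UMIs, 37.2% of CTX cells of the class had a Cxcl9 UMI (1570 of 4219) and 13% of ctxd18t cells (91 of 700), -24.2 points (-26.9 to -21.2). Unthinned, the shares were 66.0% and 31.5%. B-lineage-like cells, which should lack the transcript, gave 0.347% in CTX and 0 of 782 in ctxd18t when thinned, which allows up to 0.384%.

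The promoters of 3 interferon-induced genes are shown, Cxcl9 as the gene of the series title and Cxcl10 and Isg15 as members of the same responses. Each runs from 250 bases before to 50 bases after the gene's start in RefSeq on mouse build GRCm38.p6 (the submitters' notes name GRCm39), read 5′ to 3′ on the minus strand. Cxcl9 lies at chr5:92328030-92328329, Cxcl10 at chr5:92348840-92349139 and Isg15 at chr4:156200769-156201068. Capitals mark matches on either strand to GAAA, NN and GAAA in a row, the core of the interferon-stimulated response element, which binds the factors that type I interferon activates.
Cxcl9: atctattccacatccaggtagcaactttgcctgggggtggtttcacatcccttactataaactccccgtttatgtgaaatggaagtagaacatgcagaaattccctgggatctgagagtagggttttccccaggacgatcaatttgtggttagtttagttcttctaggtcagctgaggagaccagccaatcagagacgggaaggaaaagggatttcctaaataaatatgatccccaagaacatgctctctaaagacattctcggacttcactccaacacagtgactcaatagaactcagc
Cxcl10: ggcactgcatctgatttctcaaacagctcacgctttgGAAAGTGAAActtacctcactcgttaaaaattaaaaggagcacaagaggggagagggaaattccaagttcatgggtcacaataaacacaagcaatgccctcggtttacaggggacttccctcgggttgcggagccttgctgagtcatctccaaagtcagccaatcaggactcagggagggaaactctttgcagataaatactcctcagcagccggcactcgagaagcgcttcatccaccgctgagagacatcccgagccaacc
Isg15: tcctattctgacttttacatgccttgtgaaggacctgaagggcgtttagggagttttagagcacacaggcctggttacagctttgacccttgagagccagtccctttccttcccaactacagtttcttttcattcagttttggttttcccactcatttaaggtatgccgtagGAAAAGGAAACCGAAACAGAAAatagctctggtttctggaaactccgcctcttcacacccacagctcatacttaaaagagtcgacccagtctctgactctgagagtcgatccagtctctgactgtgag
Isg15 held 3 overlapping matches, Cxcl10 held 1 and Cxcl9 held 0 in these windows. The gamma-activated site TTCNNNGAA, through which interferon-gamma acts on its targets, had 0 matches in all 3. Over all 27025 promoters of the table, 3.49% held the response element core and 8.47% held TTCNNNGAA. Of the 13 interferon-gamma response genes expressed in the class, 11 had a promoter in the table, and 8 of these held the core and 4 held TTCNNNGAA. For the type I list these numbers were 16 of 21 with a promoter, then 9 and 3. A match is a run of letters and was not tested as a binding site.

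The interferon-gamma response list leaned the same way as Cxcl9 with smaller differences. Of 19 listed genes 13 were expressed, 12 of them had a log2 ratio below 0, and the list median was -0.68, or -0.89 relative. Cxcl9 was the only expressed member past 2-fold, and under the relative scale 3 members were. Gbp4, Gbp2 and Gbp5, guanylate-binding proteins that attack vacuoles holding microbes, had log2 ratios of -0.91, -0.70 and -0.66. Cd274, which encodes the checkpoint ligand PD-L1, stood at 258 CPM against 426 CPM. Cxcl10, a second ligand of the receptor for CXCL9, stood at 139 CPM in ctxd18t and 233 CPM in CTX, a log2 ratio of -0.73 (-0.82 to -0.66). Irf1, a transcription factor early in the same response, was at 0.08, or -0.14 relative.

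Type I interferon-stimulated genes lay closer to 0. Of 29 listed genes 21 were expressed and 16 had a log2 ratio below 0, with a median of -0.31 (-0.52 relative). Isg15, a ubiquitin-like protein, was the only one past 2-fold, at 444 CPM in ctxd18t and 993 CPM in CTX (log2 ratio -1.16, -1.20 to -1.12). MRX had 505, Combined 915 and combod18t 265 CPM. Bst2 and Irf7 followed at -0.80 and -0.78, while Slfn5 and Ifih1 were at 0.42 and 0.31. Within cluster 0, which is described below and held 51 ctxd18t cells, the list median was 0.49 (all genes 0.17), with 2 members past 2-fold higher and 0 lower, against -0.27 and -0.16 in clusters 1 and 5.

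Most antigen presentation genes had log2 ratios below 0 in ctxd18t macrophages, and few passed 2-fold. For class I, 13 of 14 expressed members had log2 ratios below 0 with a median of -0.87 (-1.08 relative), 2 were past 2-fold, and 10 were under the relative scale. The immunoproteasome subunit Psmb10 had 176 CPM against 371 CPM and the proteasome activator Psme1 had 343 CPM against 716 CPM. The heavy chains H2-K1 and H2-D1 stood at -0.89 and -0.87, and B2m, their light chain, at -0.63. Nlrc5, which switches class I genes on, was the exception at 0.34. Class II members gave a median of -0.65 (-0.87 relative), with 8 of 9 below 0. None were past 2-fold, and 2 were past 2-fold lower under the relative scale. Cd86, which costimulates T cells, was the member above 0, at 606 CPM against 407 CPM. Class I genes were below 0 for 13 of 14 in T-like cells (median -0.36, -0.62 relative) and 13 of 14 in NK-like cells (median -0.39, -0.65 relative). In B-lineage-like cells 7 of 13 were below 0 and 6 above (median -0.32). Under the relative scale 11 of these 13 were below 0 and 2 above (median -0.53).

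Ly6a, the gene for the surface protein Sca-1, had the largest deficit among genes named by size, with 162 CPM in ctxd18t (log2 ratio -2.54) and 946 CPM in CTX. It was at 835 CPM in Combined, 81.5 in MRX and 88.6 in combod18t. Lpl, lipoprotein lipase, was at 18.2 CPM and 107 CPM (-2.48). Serpina3g, a protease inhibitor, and Tnfaip2 were at -1.93 and -1.51. Ass1, which makes the arginine precursor argininosuccinate, was at 124.5 CPM against 323 CPM (-1.37). With the same cluster mix in both libraries Serpina3g was at -0.73 and Ass1 at -0.33. Within cluster 0 Ass1 was at 382 CPM in both (0.00, -0.18 to 0.18) and Serpina3g at -0.44, while in clusters 1 and 5 Ass1 was at -1.06 and -1.07 and Serpina3g at -1.19 and -2.53.

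**Figure D2:**
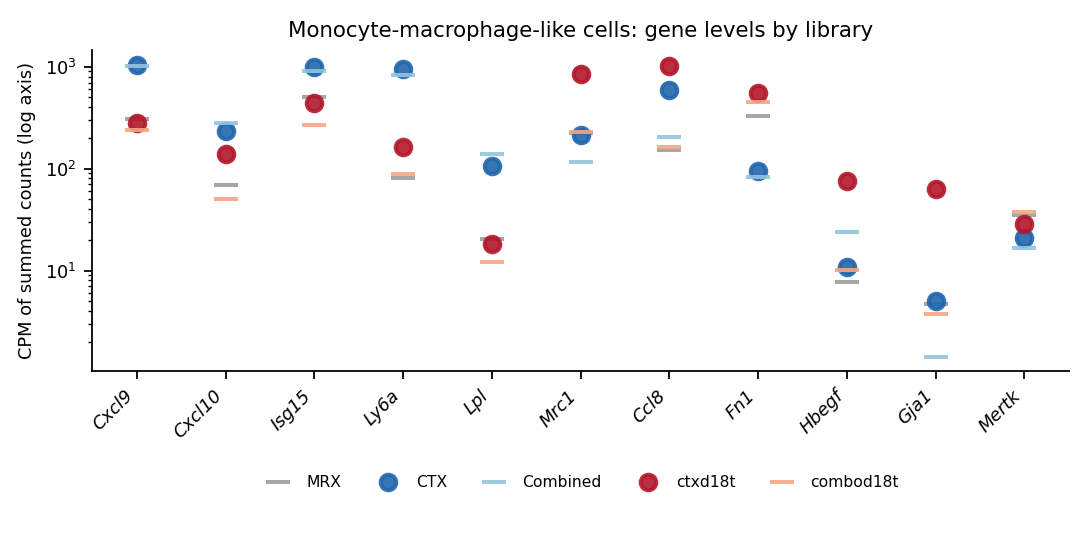
Level (CPM of summed counts, log axis) of 11 genes in monocyte-macrophage-like cells, as points for CTX and ctxd18t and dashes for MRX, Combined and combod18t. Cxcl9 in ctxd18t lies near MRX and combod18t, while Mrc1, Ccl8, Hbegf and Gja1 are highest in ctxd18t among the 5 libraries.

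Mrc1 and Fn1 were past 2-fold higher in ctxd18t. Mrc1, the mannose receptor, was at 855 CPM against 213 CPM (2.0, 1.97 to 2.05), and between 117 and 229 CPM in the other 3 libraries. Fn1, the matrix protein fibronectin, was at 548 CPM against 95.4 CPM (2.51), with 325 CPM in MRX, 83.6 in Combined and 452 in combod18t. Their lists as a whole did not share this size: of 10 expressed matrix and remodelling genes 2 were past 2-fold, with 7 above 0 and 5 above 0 on the relative scale.

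The MERTK axis was measured at low levels. Mertk stood at 28.7 CPM in ctxd18t and 20.7 CPM in CTX (log2 ratio 0.45, 0.28 to 0.66, and 0.25 relative). Gas6, its ligand, stood at 25.4 CPM and 8.07 CPM (1.54, 1.43 to 1.89). Neither passed the expression filter of 100 counts and 50 CPM, nor did 8 more of the 15 efferocytosis and scavenger genes. Of the 5 that did, Mrc1 was past 2-fold, Stab1 and Msr1 were at 0.54 and 0.30, and Axl, a relative of Mertk, was at -0.45.

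Chemokines other than the interferon-induced ones were mostly above 0 in the class as a whole. Of 15 expressed genes, 11 had log2 ratios above 0 with a median of 0.77 (0.56 relative), 5 were past 2-fold upward and 1 downward. The 5 were Cxcl1, Ccl7, Pf4, Ccl3 and Ccl4, of which 2 stayed past 2-fold under the relative scale. Cxcl1, which recruits neutrophils, was at 102 CPM against 23.6 CPM (2.06), and Ccl7, which recruits monocytes, at 440.0 CPM against 162 CPM (1.44). The list medians within clusters were 0.18 in cluster 0 (all genes 0.17), 0.23 in cluster 1 (all genes 0.21) and 0.43 in cluster 5 (all genes 0.15). Ccl8 was at 1009 CPM against 591 CPM (0.77), and at most 204 CPM in the other libraries. Ccl5 was at 229 CPM against 468 CPM (-1.03), a direction that turned to 0.10 when both libraries were given the same cluster mix. Within cluster 0 it was at 732 CPM against 421 CPM. Cluster 0 held 51 of the 702 ctxd18t cells, so its direction does not stand for the other clusters. Within cluster 1, with 294 ctxd18t cells, 2 of the 15 genes were past 2-fold higher and 1 lower. Cxcl1 and Ccl7 were at -0.60 (-1.77 to 0.30) and -0.27 (-0.65 to 0.08) within cluster 0, intervals that include 0, and above 1 in clusters 1 and 5.

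Further genes stood out by size in ctxd18t macrophages. Gja1, the gap junction protein connexin 43, was at 63.5 CPM against 5.01 CPM (log2 ratio 3.43), and at 4.64 CPM or less in the other 3 libraries. Hbegf, a growth factor of the EGF family, was at 76.1 CPM against 10.7 CPM (2.72). Mmp8, a collagenase also stored in neutrophils, was at 53 CPM against 7.59 CPM (2.65) and at 54.3 CPM in combod18t. Summed neutrophil markers in the class were 705 CPM in ctxd18t and 202 CPM in CTX, with 0 of 7 markers at 0, and their part in the Mmp8 difference was not tested.

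Lipid handling and hypoxia lists were split. Of 14 expressed lipid-associated macrophage genes, 9 were above 0, with Fabp5 at 1.02, Abca1 at 0.99, Apoe at 0.77, Trem2 at 0.54 and Spp1 at 0.63, against Lpl at -2.48. Fabp5 was lower within clusters 0 and 1 (-0.55 and -0.41) and higher within cluster 5 (1.14), and Spp1 was at 1.49, -0.08 and 0.50. The list medians in these clusters were -0.14, -0.04 and 0.26. Of 16 expressed hypoxia and glycolysis genes, 3 were past 2-fold upward, namely Egln3 (2.29), Ero1a (1.49) and Hilpda (1.19), which respond to low oxygen. The glycolytic enzymes Gapdh, Tpi1 and Eno1 were at -0.53, -0.41 and -0.37. Cfb, complement factor B, was at 182 CPM against 411 CPM (-1.18). It is a leading gene of cluster 0, which held a larger part of the class in CTX. Of 8 expressed complement genes, 0 were past 2-fold lower within clusters 0 and 1, and 1 was within cluster 5.

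Stress genes leaned upward in the class. Hspa1a and Hspa1b, near-identical chaperone genes whose counts may be split between them, were at 141 CPM against 11.1 CPM and 159.5 CPM against 11.8 CPM. Egr1 was at 75.2 CPM against 16.0 CPM. Of 16 expressed immediate-early and heat shock genes, 14 were above 0 with a median of 0.66 (0.45 relative), and 4 were past 2-fold. Among 8 expressed p53 response genes the median was 0.10 (-0.11 relative) and Plk2 was the only one past 2-fold, at 81.8 CPM against 29.2 CPM. Cdkn1a, a cell cycle inhibitor that p53 induces, was at 1143 CPM and 1268 CPM (-0.15). Nos2, the inducible nitric oxide synthase, was at 23 CPM and 20.5 CPM, below the level set for expressed genes, and its log2 ratio of 0.16 (-0.04 to 0.37) became -0.04 relative. Clusters differed, with -0.13 and -0.20 in clusters 0 and 1 and 35.9 CPM against 5.69 CPM (2.46, 2.08 to 3.29) in cluster 5, which held 357 of the 702 ctxd18t cells of the class.

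**Figure D3:**
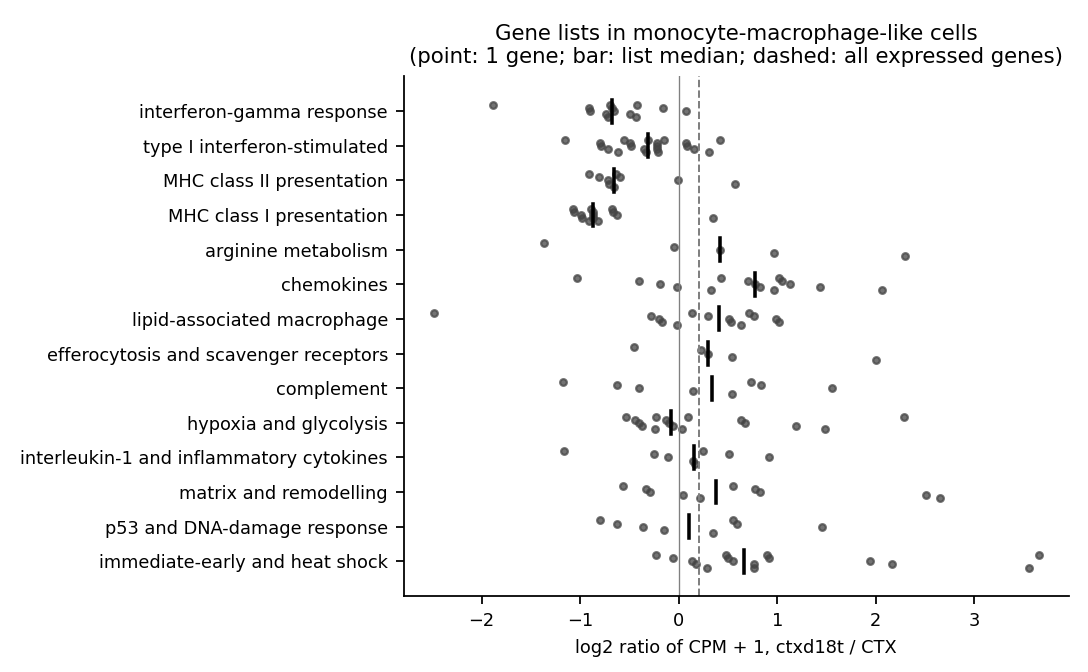
Log2 ratio of CPM + 1 (ctxd18t over CTX) of each expressed gene in 14 lists in monocyte-macrophage-like cells, with the list median as a bar and the median of all expressed genes (0.21) dashed. The interferon and antigen presentation lists lie mostly left of 0, and the chemokine and stress lists mostly right of it.

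Different clusters held most of the class in each library. Cluster 0, led by Ly6i, Ly6a2 and Inhba, held 2369 CTX cells (56.1% of the class) and 51 ctxd18t cells (7.26%). Cluster 5, led by Plcb1, F13a1 and Vcan, genes of recently arrived monocytes, held 539 CTX cells (12.8%) and 357 ctxd18t cells (50.9%). Cluster 1, led by C1qa, Ms4a7 and C1qc, genes of mature macrophages, held 1316 (31.2%) and 294 (41.9%). The listed genes were kept out of the clustering, but other genes that differ between the libraries took part in it, so these sizes describe the make-up of each class sum and are not a result of their own.

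Within clusters some differences shrank and others held. Cxcl9 was at 1285 CPM in ctxd18t and 1328 CPM in CTX within cluster 0 (log2 ratio -0.05, -0.15 to 0.05), at 359 and 812 CPM in cluster 1 (-1.17), and at 69.5 and 244 CPM in cluster 5 (-1.79). Isg15 was likewise level in cluster 0 (-0.04) and lower in clusters 1 and 5 (-1.01 and -0.67). Ly6a was lower in each of the 3 clusters, by log2 ratios of -1.05, -1.98 and -2.69. With each cluster given the same weight in both libraries, the class log2 ratio of Cxcl9 was -0.34.

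Mrc1 was higher in each of the 3 clusters (0.74, 1.05 and 2.02), as was Fn1 (1.30, 1.19 and 2.50). Ccl8 went both ways, at -2.04 in cluster 0, 0.23 in cluster 1 and 1.8 in cluster 5. Median log2 ratios of all expressed genes within these clusters were 0.17, 0.21 and 0.15. The interferon-gamma list had a median of 0.03 in cluster 0, -0.33 in cluster 1 and -0.46 in cluster 5.

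**Figure D4:**
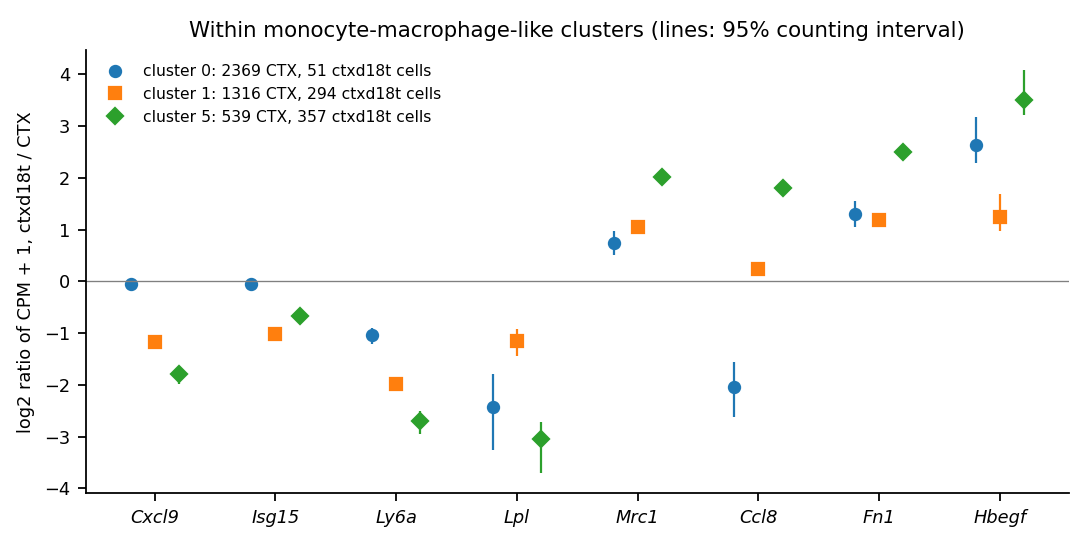
Log2 ratio of CPM + 1 (ctxd18t over CTX) of 8 genes within monocyte-macrophage-like clusters 0, 1 and 5, with 95% intervals of the ratio for counting error. Ly6a and Lpl lie below 0 and Mrc1, Fn1 and Hbegf above 0 in each of the 3 clusters, while Cxcl9 is near 0 in cluster 0 and lower in the others.

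T-like cells of ctxd18t had more CD8 transcript, less cell cycle transcript and more transcript of checkpoint genes. Among 4121 expressed genes, 140 were past 2-fold higher (3.4%) and 101 lower (2.45%), 5.85% in either direction, and under the relative scale 31 and 277, because the median log2 ratio was 0.26. At 1000 UMIs per cell, 34.7% of ctxd18t T-like cells (426 of 1229) and 25.4% of CTX cells (433 of 1703) had a UMI of Cd8a or Cd8b1, 9.24 points more (5.87 to 12.6). Unthinned these shares were 54.5% and 45.2%, and in B-lineage-like cells the thinned shares were 0.512% and 0%. Cd4 gave 18.3% and 15.7%, a difference of 2.57 points (-0.171 to 5.37), and Foxp3, the regulatory T-cell factor, gave 4.56% and 4.23% (0.329 points, -1.15 to 1.90), neither of them detectable here. Unthinned, Cd4 gave 44.1% and 42.8%, and Foxp3 13.7% and 14.8%. At 2000 UMIs per cell the differences were 8.16 points for Cd8a or Cd8b1 (4.55 to 11.75), 1.17 for Cd4 (-1.99 to 4.37) and 0.313 for Foxp3.

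Proliferation genes had lower summed levels in the T-like class. All 18 expressed S phase genes had log2 ratios below 0 (median -0.82, 6 past 2-fold), and so did all 15 expressed G2/M genes (median -0.93, 6 past 2-fold). Under the relative scale 12 S phase and 9 G2/M genes were past 2-fold lower. The replication helicase subunit Mcm5 was at 28 CPM against 65.6 CPM (log2 ratio -1.20) and Birc5, which encodes survivin, at 63.4 CPM against 174 CPM (-1.44). A UMI of Mki67 or Top2a was found in 17.0% of thinned ctxd18t cells and 25.1% of CTX cells, -8.13 points (-11.0 to -5.15), and in 43.7% and 46.0% unthinned. Cluster 10, led by Rrm2 and Nusap1, held 106 of 1251 ctxd18t and 404 of 1706 CTX T-like cells. Within it the S phase median was -0.02 and the G2/M median 0.33. Both medians were above 0 within clusters 3, 6 and 8 (S phase 0.05, 0.04 and 0.50, G2/M 0.16, 0.08 and 0.19), and cluster 8 had 6 S phase genes past 2-fold higher and 1 lower. Both were below 0 within clusters 11, 12 and 14 (S phase -0.38, -0.55 and -0.23, G2/M -0.48, -0.88 and -0.35).

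Checkpoint and exhaustion genes leaned upward. All 11 expressed members had log2 ratios above 0, with a median of 0.81 (8 of 11 relative), and 4 were past 2-fold. These were Nr4a3 (371 CPM against 159 CPM), Tox (1128 against 546), Entpd1 (177 against 86.4) and Havcr2 (118 against 57.8). None of the 11 stayed past 2-fold under the relative scale, where the median was 0.56. Pdcd1, the gene for PD-1, was at 363 CPM against 223 CPM (0.70, 0.63 to 0.77), and 22.4% against 13.7% of thinned cells had a UMI (49.3% against 37.1% unthinned). B-lineage-like cells gave 0.639% and 0% when thinned. Ctla4 was at 0.06, or -0.20 relative. Lag3 was at 64.3 CPM against 40.1 CPM. Tox was higher in each of the 7 T-like clusters with at least 20 cells per side, from 0.27 to 1.59. The list median was -0.43 in cluster 3, 0.10 in cluster 11 and 0.72 in cluster 8. Cluster 14, which had a list median of 0.60, held 21.6% of ctxd18t and 8.09% of CTX T-like cells.

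Effector genes diverged from each other in the T-like class. Prf1, perforin, was at 182 CPM against 50.1 CPM (log2 ratio 1.84, 1.73 to 1.99) and Fasl at 179.8 CPM against 69.4 CPM (1.36). Gzmb, granzyme B, was at 420 CPM against 569 CPM (-0.44), and Ifng at 81.6 CPM against 165 CPM (-1.01, -1.13 to -0.91). The share of thinned cells with an Ifng UMI was 5.05% against 5.29%, a difference of -0.240 points (-1.84 to 1.44), and 17.9% against 17.2% unthinned. At 2000 UMIs per cell the difference was 0.806 points (-1.13 to 2.83). Ifng was at 158 CPM against 691 CPM within cluster 14, led by Ccl1 and Atp2b2, and at 119.5 CPM against 346 CPM within cluster 6, led by Gzmk and Esm1. Ccl5 was at 2093 CPM against 901 CPM, while Xcl1, which attracts cDC1, was at 209 CPM against 506 CPM.

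Quiescence and residency genes leaned upward in T-like cells with few past 2-fold. Of 13 expressed quiescence and homing genes, 11 were above 0 (median 0.56, 0.30 relative) and 1 was past 2-fold (0 relative). Tcf7 was at 237 CPM against 158 CPM. Of 9 expressed tissue residency genes, 8 were above 0 and 2 were past 2-fold (1 relative). All 5 expressed killer lectin-like receptor genes were above 0, with Klrc1 at 289.7 CPM against 129 CPM, and 3 were past 2-fold (0 under the relative scale). Itgae, which holds T cells in epithelium, was at 69.2 CPM against 26.9 CPM (1.33). Hypoxia and glycolysis genes had a median of -0.62 over 10 expressed members, with Tpi1 at -1.15. Cdkn1a was at 102 CPM against 197 CPM (-0.94). Summed monocyte-macrophage markers in T-like cells were 190 CPM in ctxd18t and 323 CPM in CTX, with 0 of 11 at 0. Summed NK markers were 145 CPM in ctxd18t, with 1 of 6 at 0, and 65.0 CPM in CTX, with 2 of 6 at 0, and so were higher alongside the killer lectin-like receptors, Prf1 and Fasl. The part of either list in these values was not tested.

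NK-like cells of ctxd18t numbered 110, so their values are the least precise. They had lower cell cycle genes and higher genes of quiescence. Of 4112 expressed genes 334 were past 2-fold higher (8.12%) and 195 lower (4.74%), 12.9% in either direction, or 129 and 418 under the relative scale. All 17 expressed S phase genes were below 0 (median -1.30, 10 past 2-fold, 12 relative), as were all 10 expressed G2/M genes (median -1.03, 5 past 2-fold, 7 relative). Mcm5 had 9 counts in ctxd18t and 263 in CTX, a log2 ratio of -2.36 (-3.63 to -1.54). The thinned share with Mki67 or Top2a was 9.35% against 21.7%, -12.3 points (-17.8 to -4.68), and 40.9% against 47.5% unthinned. Cluster 16, the cycling NK-like cluster, held 4 ctxd18t and 95 CTX cells. The lower levels were also present within cluster 4, which held 106 ctxd18t and 513 CTX cells. There the S phase median was -1.09 with 9 of 17 past 2-fold lower, and the G2/M median -1.15 with 5 of 10.

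Of 11 expressed quiescence and homing genes in NK-like cells, 10 were above 0 and 6 were past 2-fold, with a median of 1.05 (0.78 relative, 4 past 2-fold). Il7r, the receptor of the survival cytokine IL-7, was at 205 CPM against 29.8 CPM (2.74, 2.47 to 3.09). Klf3 and Klf2, genes of recirculating lymphocytes, were at 2.31 and 1.6. Several of these genes are also high in T cells: summed T-cell markers in the class were 1147 CPM in ctxd18t and 980 CPM in CTX, with 1 of 12 at 0 in each, and their part was not tested. Within cluster 4, which held 106 of the 110 cells, Il7r was at 2.49 and Klf3 at 2.21. The killing genes Gzma, Gzmb and Prf1 were at -0.36, -0.51 and -0.55, and 0 of 11 expressed cytotoxic genes were past 2-fold. Ifng was at 111 CPM against 69.5 CPM (0.67, 0.35 to 0.99), unlike in the T-like class. A test of that difference between classes was not made.

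**Figure D5:**
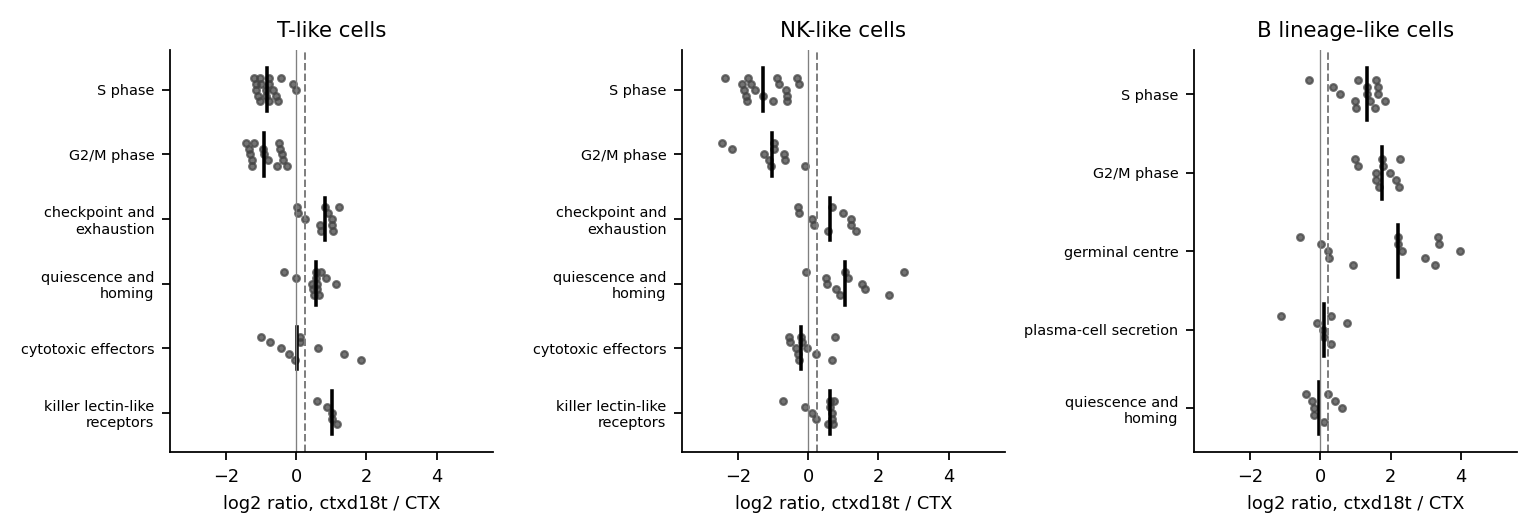
Log2 ratio of CPM + 1 (ctxd18t over CTX) of each expressed gene in lists for T-like, NK-like and B-lineage-like cells, with list medians as bars and the class median of all expressed genes dashed. S phase and G2/M genes lie left of 0 in T-like and NK-like cells and mostly right of it in B-lineage-like cells, where the germinal centre list reaches 3.97.

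B-lineage-like cells differed in the opposite direction for proliferation, together with genes of the germinal centre, the structure in which B cells divide and mutate their receptors. Of 3967 expressed genes, 180 were past 2-fold higher (4.54%) and 27 lower (0.681%), 5.22% in either direction, or 120 and 60 under the relative scale. Of 13 expressed germinal centre genes 12 were above 0 and 8 were past 2-fold under both scales, with a median of 2.22 (2.01 relative). Rgs13, a regulator of G-protein signalling, was at 165 CPM against 9.55 CPM (log2 ratio 3.97, 3.55 to 4.73). It was at 85.5 CPM in combod18t and at 8.94 CPM or less in MRX and Combined, so ctxd18t and combod18t stood above the other 3 libraries.

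Other members of the list were higher as well. Mybl1 was at 175 CPM against 16.2 CPM, Gcsam at 66.4 CPM against 5.51 CPM and Nuggc at 75.2 CPM against 6.98 CPM. Bcl6, the factor that defines germinal centre B cells, was at 118 CPM against 61.3 CPM (0.93). Fas was at 56.7 CPM against 11.4 CPM. Fcer2a, a gene of follicular B cells, was at 181 CPM against 270 CPM.

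Cell cycle genes followed. Of 14 expressed S phase genes 10 were past 2-fold higher (median 1.33, 8 past 2-fold relative) and of 11 expressed G2/M genes 10 were (median 1.75, 9 relative). Mki67 was at 441 CPM against 91.5 CPM (2.26, 2.08 to 2.46), and 18.2% against 5.73% of thinned cells had a UMI of Mki67 or Top2a, 12.4 points more (9.06 to 15.7), or 37.2% against 14.4% unthinned. The median B-lineage-like cell had 7609 UMIs in ctxd18t and 4023 in CTX, so the thinned shares are the like-for-like values.

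Part of this difference lay in cluster 19, led by Ighg2c, Ighg2b and Jchain. It held 187 ctxd18t cells (23.7% of the class) and 15 CTX cells (2.60%), with 50 in combod18t, 12 in MRX and 9 in Combined. The larger cluster 2, led by Ighd and Fcmr, genes of naive and follicular B cells, held 603 and 562 cells. Within cluster 2, Mki67 was at 46.5 CPM against 6.61 CPM, and 135 of the 1248 Rgs13 counts of ctxd18t lay there, with 9 of 26 in CTX. Of 13 germinal centre genes 6 were past 2-fold higher within cluster 2 (median 0.96, all genes 0.21), and so were 4 of 11 G2/M genes (median 0.75). Cd74 and the class II chains H2-Aa and H2-Eb1 were at -0.59, -0.57 and -0.50 in the whole B-lineage-like class.

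Slpi, a secreted protease inhibitor, had the largest log2 ratio named by size in B-lineage-like cells, 5.94 (5.51 to 6.76), from 23 counts in CTX and 4378 in ctxd18t. Its level was 578 CPM against 8.45 CPM, 1790 CPM in combod18t, and 20.4 CPM or less in MRX and Combined. It was seen in 12.3% of ctxd18t B-lineage-like cells, and 268 of its counts lay in cluster 2. All other kept cells, without those of the mixed clusters, together had 122 CPM in ctxd18t and 134 CPM in CTX. Summed neutrophil markers in the class were 25.6 CPM and 6.98 CPM, with 0 of 7 at 0, and their part was not tested. Nt5e, the ecto-enzyme CD73, was at 52.0 CPM against 4.04 CPM (3.4). Egr1 and Zfp36, immediate-early genes, were lower at -1.50 and -1.24, and Irf4, which drives plasma cell fate, was at 87.7 CPM against 194 CPM. Irf4 was the only 1 of 7 expressed plasma-cell secretion genes past 2-fold, and 5 of the 7 were above 0 (median 0.12, -0.09 relative).

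The combod18t and Combined libraries form a second pair across the same days, with no library in common. Of the genes named above or by the same rule that were past 2-fold in ctxd18t against CTX, the log2 ratio had the same sign in that pair for 31 of 36 in monocyte-macrophage-like, 39 of 42 in T-like, 22 of 23 in NK-like and 18 of 18 in B-lineage-like cells. The share of all expressed genes with the same sign in both pairs was not computed, so these counts have no background beside them. Summed ribosomal and respiratory genes were lower in both pairs in each class compared, and the named genes include respiratory ones. Macrophage genes of opposite sign included Ccl7, Fabp5, Ero1a and Hbegf. In T-like cells they were Hspa1a, Hspa1b and Cxcr6, and in NK-like cells Crtam. As day and pool change together in the second pair too, it does not separate them.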

How the data were processed

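Each deposited matrix gives whole-number UMI counts for 33696 features, not normalised. They came from Cell Ranger 9.0.1, per the file headers. The submitters' processing notes name Seurat 5.2.0 and GRCm39. Cells were filtered as in the opening (166 CTX and 116 ctxd18t barcodes removed). Scrublet (scanpy 1.11.5) was run per library. Its own threshold marked at most 0.134% of cells, so about the top 5% by score were removed (392 CTX, 166 ctxd18t). The 12351 kept cells of the pair were clustered with the other 3 libraries (25653 cells) on 2000 variable genes, without the 409 listed genes, with 30 components, 15 neighbours and Leiden resolution 1 (leidenalg 0.10.2), into 24 clusters. Classes were named from 15 marker lists. The scoring rule, and the rule that sets aside clusters with at least 3 markers of another class in 50% of cells at over 1.5 times the depth, were set after seeing the data. A few genes of the lists are counted with their lists but not reported here by name. The members and lists were chosen with earlier results of these data known.

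Counts were summed per class and library into CPM. Summed UMIs were 48729489 and 10376746 in monocyte-macrophage-like cells (CTX, ctxd18t), 13174579 and 11640153 in T-like, 5136848 and 982509 in NK-like, and 2722501 and 7570996 in B-lineage-like cells. Ratios used a pseudocount of 1 CPM, which understates low genes, and expressed genes had at least 100 counts over the pair and 50 CPM in 1 library. Intervals are exact Poisson for CPM, exact conditional binomial for ratios, Clopper-Pearson for shares and Newcombe for differences. Limits for 0 cells use 3 counts. Thinning left out 5 and 2 shallower monocyte-macrophage-like cells (CTX, ctxd18t), 3 and 22 T-like, 4 and 3 NK-like and 1 and 8 B-lineage-like cells. Named genes were a fixed set per class, the 2 most extreme past 2-fold in each direction of each list, and the 10 (macrophage, T) or 5 most extreme by size, without markers and leading cluster genes; others named in the text are list members chosen after their values were seen. On simulated counts (3854 genes of the monocyte-macrophage-like comparison, 200 changed), 200 kept their direction and 94.9% of intervals held the true value. These counts were drawn with the counting error that the intervals assume and without spread between cells or libraries. They check the calculation only.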

Additional observations from a re-analysis of the deposited data

Results flagged for a closer look

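Hbegf in monocyte-macrophage-like cells went in opposite directions in the pairs across days. Its log2 ratio was 2.72 in ctxd18t against CTX (76.1 against 10.7 CPM) and -1.15 in combod18t against Combined (10.2 against 23.8 CPM). The difference between the pairs was not tested, as each library is a single one. With the labels of the day 18 libraries exchanged, whose barcode sets are crossed, the same levels would set 10.2 CPM against 10.7 CPM and 76.1 CPM against 23.8 CPM. The same exchange would set Ero1a at 68.3 against 70.1 CPM and 197.8 against 75.8 CPM. Ccl7 would be set at 59.4 against 162 CPM and 440 against 108 CPM. Fabp5 would be set at 69.6 against 151 CPM and 306 against 97.4 CPM. The exchange thus reads differently from gene to gene. Whether they were exchanged was not tested.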

How the results depend on the processing

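The differences in share of all kept cells were recomputed for monocyte-macrophage-like, T-like, NK-like, B-lineage-like, neutrophil-like, pDC-like and epithelial-like cells and for cDC1 and cDC2 together. They kept their direction (cells with at least 500 genes, at most 10% mitochondrial counts, no doublet removal, mixed clusters kept, resolution 2, the pair clustered alone), except the pDC-like one, which was -0.018 points with the pair clustered alone. The other shares, and the shares of cells other than macrophages, were not recomputed. Counts of genes past 2-fold moved more. Median-of-ratios scaling gave 80 higher and 133 lower in monocyte-macrophage-like cells, 31 and 277 in T-like, 129 and 418 in NK-like, and 60 lower in B-lineage-like cells. Without a filter on low counts they were 622 and 85, 537 and 228, 1720 and 1122, and 1089 and 310, in the same order, from 20954, 19789, 15941 and 17707 genes. Thinning each cell to 1000 UMIs gave 80 lower in monocyte-macrophage-like cells, 100 and 105 in NK-like and 81 and 16 in B-lineage-like cells, but it also left fewer expressed genes to count from, 1386 rather than 4112 in NK-like and 2621 rather than 3967 in B-lineage-like cells. The mean CPM of single cells gave 92 and 61 in T-like and 99 higher in B-lineage-like cells, and a pseudocount of 10 CPM gave 72 higher in T-like cells. With the same cluster mix in both libraries 81 and 26 were left in monocyte-macrophage-like cells and 51 and 47 in T-like cells. That alternative could not be run for NK-like and B-lineage-like cells, where 1 cluster had at least 20 cells on both sides. Among named genes, Ccl5 in monocyte-macrophage-like cells became 0.10 with the same cluster mix, and in NK-like cells Nlrc5 became -0.086 and Sntb1 -0.23 when thinned. Of 36 named macrophage genes past 2-fold, 23 stayed past it with the same cluster mix, and of 42 T-like genes also 23. The cause of these changes was not tested. No paired analysis was possible because each label has a single library, so no replicate could be left out either.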
